A study of Canis lupus familiaris with 81 samples.

Results

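Probes RTS0112268, RTS0112269 and RTS0113569 are 3 of the 2010 probes counted in regions of canine appendicular osteosarcoma and of control tissues. They were chosen by the share of the tumour counts that they hold, so their high share and their distance from the control tissues are described here and not tested. The files name probes by identifier and do not pair them with genes, and the gene table at hand held 0 of the 2010 identifiers. The probes are therefore called by their identifiers, and no gene, role or sequence is given for them.

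The series assayed primary tumours of pet dogs enrolled in a clinical trial with the GeoMx Digital Spatial Profiler. The tumours stood on 2 tissue microarrays, slides that carry small pieces of many specimens, here called array 1 and array 2. There were 68 tumour regions from 24 tumour numbers, each taken as 1 tumour, 4 regions each of kidney, spleen and liver, and 1 no-template control, a library prepared with no tissue. Both arrays carried every tumour, with 2 regions apiece for 10 tumours and 1 for the other 14, and every control tissue, with 2 regions apiece. All tumours share the species and the diagnosis, and the labels give no genotype, treatment arm or age for any tumour. The labels do not say how regions were placed, whether the pieces on both arrays were cut from the same block, or which dogs gave the control tissues. The comparison by disease-free interval was not analysed here because the labels do not give the interval of a tumour. The control regions are of soft organs and not of bone, so they do not stand for the tissue that the tumours grew in.

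Osteosarcoma is a malignant tumour of bone whose cells lay down osteoid, the matrix that becomes bone. In the GeoMx assay, probes that carry a DNA tag bind to RNA in a tissue section, light releases the tags from a chosen region, and the tags are sequenced and counted. A count depends on the amount of the target RNA in the region and on how well the probe binds and is read, so the counts of different probes cannot be set against each other as amounts of RNA. A region holds many cells, and a smaller number of cells of a type cannot be told apart from less RNA per cell.

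Total counts ranged from 17711 to 1069118 in the tumour regions, with a median of 211967, and from 92126 to 396058 in the control regions. No tissue region had a count of 0 for any of the 3 probes. The widest 95% exact binomial interval of a share in a tumour region spanned 1.39 percentage points for RTS0112268, 0.908 for RTS0112269 and 0.637 for RTS0113569. These intervals cover counting error only.

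The 3 probes together took a median of 27.2% of a tumour region's counts, from 4.62% to 78.3%. RTS0112268 held 1.73% at its lowest, 18.8% at the median and 49.98% at its highest among the 68 regions. RTS0112269 held 1.48%, 8.96% and 23.7%, and RTS0113569 held 1.38%, 3.13% and 10.8%. The share of RTS0112268 thus spread over the widest range and that of RTS0113569 over the narrowest. In 22 of 68 regions the 3 probes held over 50% of all counts, and 7 of 24 tumours had a mean over 50%. What was left for the other 2007 probes ran from 21.7% to 95.4% of a region's counts, so the share of any other probe moves with the level of these 3.

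**Figure D1:**
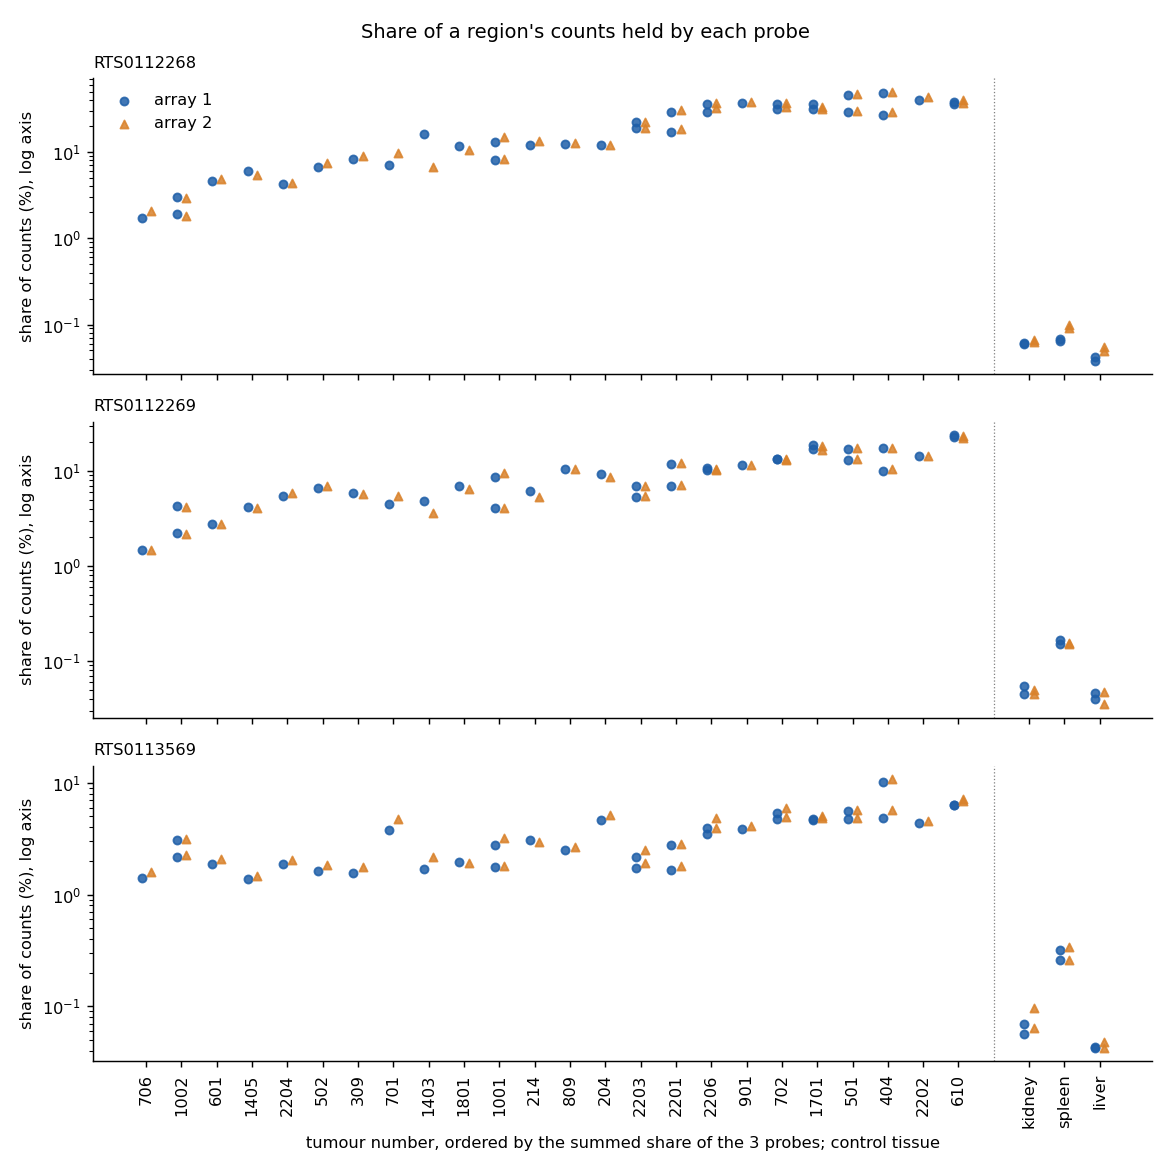
Share of a region's counts held by each probe, in percent on a log axis, for the 68 tumour regions by tumour number and for the 12 control regions. Circles are regions on array 1 and triangles regions on array 2, and every tumour region lies above every control region in each panel.

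Tumours were ordered by the mean summed share of their regions. The highest was tumour 610, whose regions held 67.9% and 65.5% on array 1 and 70.8% and 66.6% on array 2. Tumour 2202 followed with 59.4% on array 1 and 62.2% on array 2. Tumour 404 came next with 42.2% and 76.4% on array 1 and 45.6% and 78.3% on array 2. In 404, 1 region on each array thus lay far above the other, and the regions of 404 span those of both tumours ranked above it. At the other end, tumour 706 held 4.62% and 5.16%. Tumour 1002 held 6.30% and 10.3% on array 1 and 6.30% and 10.2% on array 2, and tumour 601 held 9.24% and 9.66%. The regions of 706 lay below all others, while those of 601 fell inside the range of 1002. Of the 23 neighbouring pairs in this order, 15 had regions that overlapped, and of all 276 pairs of tumours 235 did not overlap.

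RTS0112268 had the highest count of all probes in 60 of 68 tumour regions. RTS0112269 led in 3 regions, which were both regions of tumour 2204 and 1 region of tumour 1002 on array 1. RTS0112268 and RTS0112269 were together the 2 highest probes in 61 of 68 regions, and all 3 probes filled the top 3 places in 30 of 68. RTS0113569 led in 0 regions, took place 2 in 1 region, place 3 in 33 and place 4 in 17, and its lowest place was 8. RTS0112268 never fell below place 5 and RTS0112269 never below place 8.

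The other leaders were RTS0113072 and RTS0113778. RTS0113072 led in the other 3 regions of tumour 1002 with 4.15%, 4.07% and 4.33% of the counts, where RTS0112268 held 1.90%, 1.84% and 2.90%. RTS0113778 led in both regions of tumour 706 with 3.60% and 4.18%, where RTS0112268 held 1.73% and 2.08%. Both tumours were the lowest of the 24 in summed share.

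To compare regions without a total that the 3 probes themselves fill, the level of a probe was taken as its counts per 1000000 counts of the 2007 other probes, on the log2 scale. The level of RTS0112268 ran over the 24 tumours from 14.29 in tumour 706 to 20.16 in tumour 610, with a median of 17.32. That of RTS0112269 ran from 13.93 in 706 to 19.45 in 610, with a median of 16.38. That of RTS0113569 ran from 13.94 in 706 to 17.67 in 404, with a median of 15.08. Tumour 706 was the lowest for each probe. On the linear scale, where the mean weights high regions more, tumour 404 was the highest for RTS0112268, at 67.002-fold over 706. The highest tumour stood 46.1-fold over 706 for RTS0112269 (tumour 610) and 17.7-fold for RTS0113569 (tumour 404). In the order of tumours by level, 16, 15 and 17 of the 23 neighbouring pairs overlapped in their regions for RTS0112268, RTS0112269 and RTS0113569.

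In the control tissues, each probe held a small part of the counts. RTS0112268 held 0.0590%, 0.0611%, 0.0667% and 0.0630% in the 4 kidney regions, 0.0675%, 0.0636%, 0.0910% and 0.0986% in spleen, and 0.0419%, 0.0379%, 0.0554% and 0.0497% in liver. In each of these tissues the regions on array 2, given last, were higher than those on array 1. RTS0112269 held 0.0449%, 0.0540%, 0.0453% and 0.0491% in kidney, 0.168%, 0.152%, 0.151% and 0.153% in spleen, and 0.0400%, 0.0462%, 0.0478% and 0.0350% in liver. RTS0113569 held 0.0686%, 0.0568%, 0.0958% and 0.0642% in kidney, 0.258%, 0.317%, 0.259% and 0.342% in spleen, and 0.0429%, 0.0423%, 0.0478% and 0.0423% in liver. For RTS0112269 and RTS0113569 all 4 spleen regions lay above all kidney and liver regions. For RTS0112268 the spleen and kidney regions overlapped. The counts behind these shares were small, the lowest being 51 for RTS0112268, 38 for RTS0112269 and 44 for RTS0113569 in a liver region. The 44 counts of RTS0113569 gave a share of 0.0478% with a 95% exact binomial interval from 0.0347% to 0.0641%, which takes in all 4 liver values.

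Every tumour region had a higher level than every control region for all 3 probes. Over all probes, 25 of 2010 did the same, which is 1.24%, and since the 3 were chosen for this contrast nothing is read from it. The lowest tumour region stood 18.3-fold over the highest control region for RTS0112268, 9.21-fold for RTS0112269 and 4.27-fold for RTS0113569. The median tumour level of RTS0112268 was 263-fold that of kidney, 206-fold that of spleen and 357-fold that of liver. For RTS0112269 these folds were 182, 56.02 and 200, and for RTS0113569 they were 54.1, 12.4 and 84.3. No background was subtracted, and its part in these folds was not tested. For each probe the fold was smallest against spleen, and for each tissue it was smallest for RTS0113569. In the control regions the probes were not among the leaders, and the highest place that any of them took was that of RTS0113569 in spleen, at 32 to 39 of 2010.

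The order of the 3 probes by count differed between tumour and spleen. RTS0112268 led, RTS0112269 came next and RTS0113569 last in 61 of 68 tumour regions, and the reverse order was found in 4 of 4 spleen regions. Kidney had RTS0113569 first in 3 regions and RTS0112268 first in 1. The liver regions had no shared order, at counts between 38 and 95, and in 1 of them RTS0112269 and RTS0113569 had equal counts of 44. Among the tumours, the reverse order was found in 1 region, that of tumour 1002 on array 2.

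The ratio of 2 of the probes within a region needs no scaling, since both counts come from the same library. As probes differ in how well they are read, a ratio above 1 does not show that 1 RNA exceeds another. The ratio of the same 2 probes can be set against that of another region, with a limit in the control tissues. No background was subtracted there. The median counts of the 3 probes in liver were 66, 62.5 and 66.5, against a median probe count of 36.5. They were 124.5, 90 and 156 against 41.5 in kidney, and 154.5, 322.5 and 567 against 56.5 in spleen. The part of background in the control ratios was not tested. On the log2 scale, RTS0112268 over RTS0112269 averaged 0.37 ± 0.16 in kidney, -0.98 ± 0.35 in spleen and 0.12 ± 0.33 in liver (SD, n = 4 regions). RTS0112268 over RTS0113569 averaged -0.16 ± 0.27, -1.89 ± 0.34 and 0.06 ± 0.19. RTS0112269 over RTS0113569 averaged -0.54 ± 0.42, -0.90 ± 0.25 and -0.06 ± 0.17. Spleen had the lowest mean of the control tissues for each ratio.

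Over the 24 tumours the same log2 ratios averaged 0.86 ± 0.62, 2.18 ± 0.94 and 1.32 ± 0.60 (SD, n = 24 tumours). All 68 tumour regions lay above all 4 spleen regions for each of the 3 ratios. Against kidney, 51 of 68 tumour regions lay above every region for RTS0112268 over RTS0112269, 64 for RTS0112268 over RTS0113569 and 67 for RTS0112269 over RTS0113569. Against liver these numbers were 53, 64 and 64. The ratio of the 2 leading probes thus overlapped most with the control tissues. These counts describe the contrast for which the probes were chosen and carry no test.

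**Figure D2:**
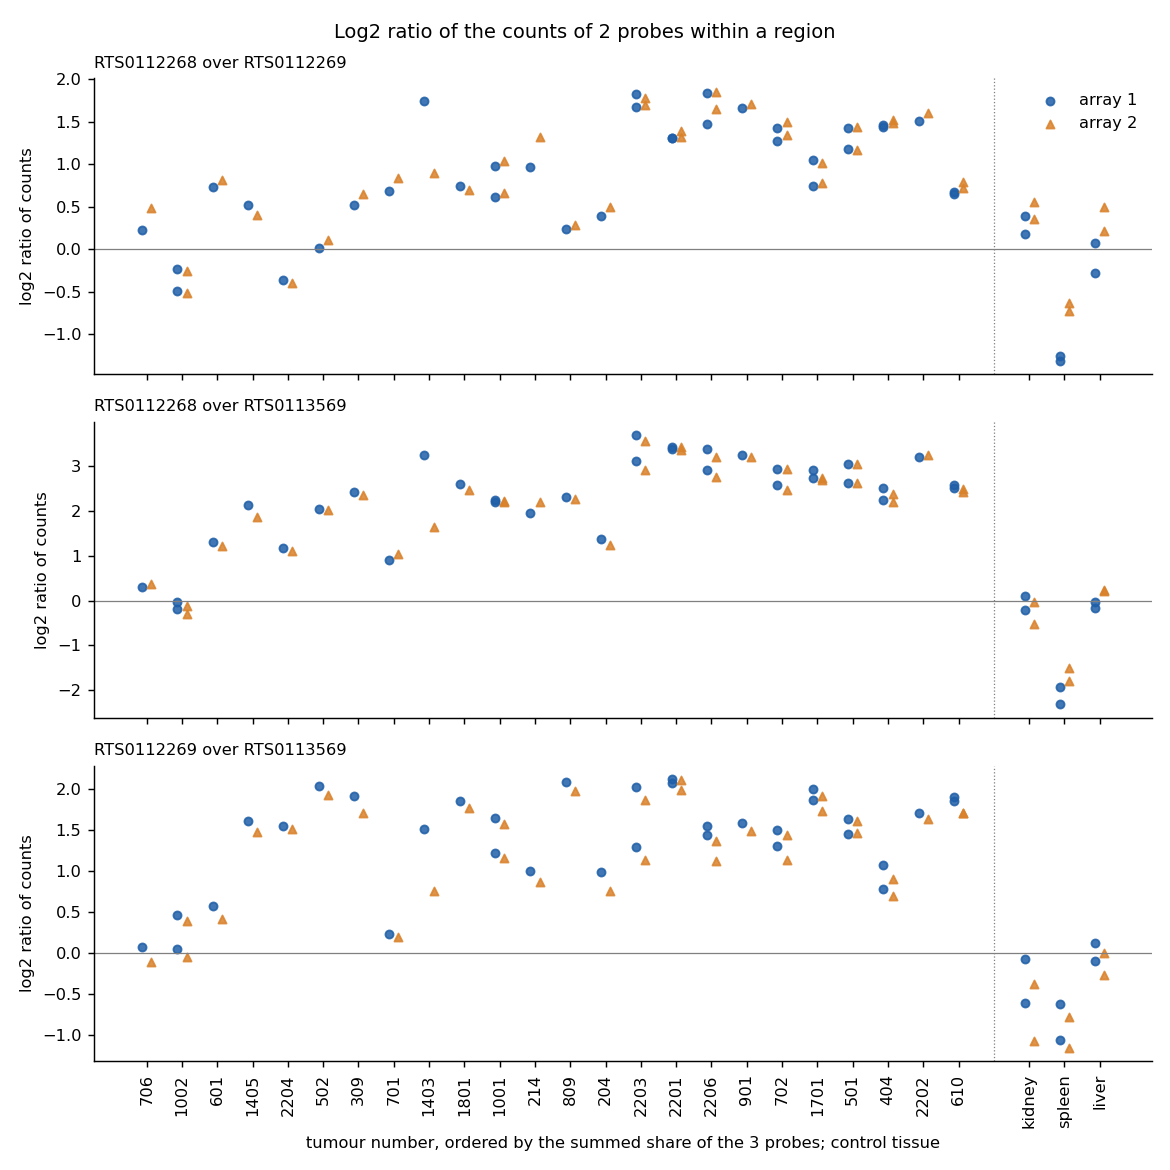
Log2 ratio of the counts of 2 probes within each region, 1 panel for each pair, for the 68 tumour regions by tumour number and the 12 control regions. Circles are array 1, triangles array 2, and the grey line marks equal counts. The 4 spleen regions lie below every tumour region in each panel.

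Tumours differed in these ratios. RTS0112268 over RTS0112269 was lowest in tumour 2204, at -0.36 on array 1 and -0.40 on array 2. It was highest in tumour 2203, at 1.67 and 1.82 on array 1 and 1.78 and 1.69 on array 2. In 62 of 68 regions RTS0112268 had the higher count, and the other 6 were the regions of tumours 2204 and 1002. RTS0112268 over RTS0113569 was lowest in tumour 1002, at -0.19 and -0.03 on array 1 and -0.30 and -0.12 on array 2. It was highest in tumour 2201, at 3.42 and 3.38 on array 1 and 3.43 and 3.37 on array 2. The 2 ends of this ratio were thus far apart beside the small spread among the regions of either tumour. RTS0112269 over RTS0113569 was lowest in tumour 706, at 0.08 on array 1 and -0.11 on array 2. It was highest in tumour 2201, at 2.12 and 2.07 on array 1 and 2.11 and 1.98 on array 2. Of 23 neighbouring pairs in the order of tumours, 18, 16 and 20 overlapped for RTS0112268 over RTS0112269, RTS0112268 over RTS0113569 and RTS0112269 over RTS0113569.

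The question whether tumours differ by more than their own regions do was tested with the quasi-likelihood F test of edgeR on the 68 regions, with array as a covariate and all 2010 probes fitted together. The Benjamini-Hochberg adjusted p was 6.67e-23 for RTS0112268, 5.75e-21 for RTS0112269 and 1.21e-21 for RTS0113569. Of all 2010 probes, 1738 passed the threshold of 0.05, which is 86.5%, so passing it does not set the 3 apart. By p they took places 23, 48 and 38 of 2010. The p-values set differences among tumours against the spread of regions within tumours. Regions of a tumour may share a block or a piece of tissue, and the p-values may then be too small. In the 10 tumours with 2 regions on each array, 1 array alone gave larger adjusted p-values. They were 0.00192, 0.00243 and 0.00107 on array 1, and 0.000682, 0.00115 and 0.000439 on array 2. There 36.2% and 32.2% of all probes tested passed, with fewer tumours and regions.

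A large part of the variance of each level lay between tumours. It was 92.6% for RTS0112268, 89.0% for RTS0112269 and 87.0% for RTS0113569, against 53.9% for the median of all 2010 probes, and the places among all probes were 10, 36 and 61. Most probes had far lower counts, with a median probe count of 18.5 in the median tumour region, and counting error lowers this part. The 3 were not compared with probes of like count. The SD of the level over the tumours was 1.78, 1.39 and 1.17 on the log2 scale, against 0.59 for the median probe, at places 7, 23 and 50. For the ratios the part between tumours was 94.4% for RTS0112268 over RTS0112269, 94.5% for RTS0112268 over RTS0113569 and 91.3% for RTS0112269 over RTS0113569. The SD within tumours was 0.50, 0.49 and 0.46 for the 3 levels and 0.15, 0.23 and 0.18 for the 3 ratios. Within 1 array, in the 10 tumours with 2 regions there, the part of the level between tumours was lower, at 84.3% on array 1 and 84.8% on array 2 for RTS0112268, 76.0% and 75.5% for RTS0112269, and 71.4% and 73.0% for RTS0113569. There the SD within tumours was 0.70 on both arrays for RTS0112268, 0.71 and 0.72 for RTS0112269 and 0.67 on both for RTS0113569, and for the ratios it was between 0.15 and 0.24. Pooled over tumours, regions of 1 tumour thus had a smaller SD in each ratio than in any level. This did not hold for every set of regions. In the 14 tumours with 1 region on each array, the levels differed between arrays by medians of 0.162, 0.079 and 0.159. The ratios differed there by medians of 0.101, 0.083 and 0.121, so the level of RTS0112269 differed less than any ratio.

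Over the 24 tumours the levels of the 3 probes moved together. RTS0112268 and RTS0112269 had a Pearson r of 0.954 and a Spearman rho of 0.951. RTS0112268 and RTS0113569 had an r of 0.878 and a rho of 0.892, and RTS0112269 and RTS0113569 had 0.902 and 0.864. Each two-sided permutation p was 1e-05, the smallest that 100000 permutations can give, and 2e-05 after Benjamini-Hochberg adjustment over the 12 relations tested. Without tumours 610 and 706, the farthest from the median in each relation, r was 0.947, 0.858 and 0.885. On array 1 alone r was 0.9502, 0.863 and 0.901, and on array 2 alone it was 0.956, 0.886 and 0.901. The levels share a denominator, the counts of the other probes. In the order of tumours by level, the largest step between neighbours was 0.94 of a range of 5.88 for RTS0112268, 0.97 of 5.52 for RTS0112269 and 0.66 of 3.72 for RTS0113569 on the log2 scale.

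**Figure D3:**
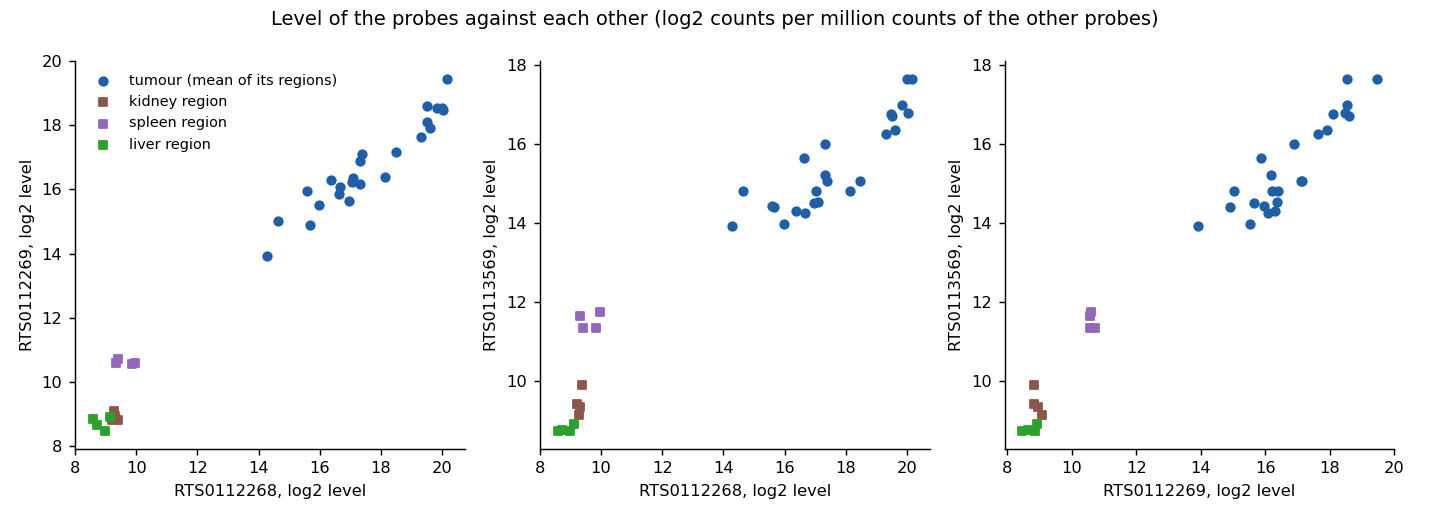
Level of each probe against each other probe, in log2 counts per 1000000 counts of the other probes. Blue circles are the 24 tumours (mean of their regions), squares are single regions of kidney, spleen and liver. The tumours form a band in each panel, and the 12 control regions lie below it. In the panels that draw RTS0112268, the band runs from 14 to 20 in that probe.

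The 5 other probes with the highest r to the mean level of the 3 were RTS0112278 (r = 0.907), RTS0113413 (r = 0.859), RTS0112279 (r = 0.858), RTS0112073 (r = 0.813) and RTS0113384 (r = 0.797) over the 24 tumours. The next probe had an r of 0.736, and the median of all 2007 probes was 0.02. These values are a description, and all levels share the same denominator. RTS0112278 held 0.344% of the counts of a tumour region at the median and RTS0112279 held 0.435%, so these 2 were themselves well counted. RTS0112073 held only 0.0203% and RTS0113384 0.0447%. RTS0112278, RTS0112279 and RTS0113413 were, like the 3, among the 25 probes with every tumour region above every control region. The same 5 probes came out on array 1 alone and 4 of them on array 2 alone.

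The ratios were set against the level of the probe that is not part of them, so that the measures share no count. RTS0112268 over RTS0113569 rose with the level of RTS0112269, with r = 0.684 (permutation p = 0.00026, adjusted p = 0.000446) and rho = 0.723 over 24 tumours. The value was 0.653 without tumours 610 and 706, 0.658 on array 1 alone and 0.704 on array 2 alone. RTS0112268 over RTS0112269 rose with the level of RTS0113569, with r = 0.505 (permutation p = 0.0117, adjusted p = 0.0175) and rho = 0.542. It was 0.550 without tumours 404 and 610, 0.462 on array 1 alone and 0.534 on array 2 alone. Over the 24 tumours, the count of RTS0112268 relative to either other probe thus tended to rise with the level of the remaining probe. The tumours at the top in level were not those at the top in ratio. RTS0112268 over RTS0113569 was 2.50 in tumour 610, the highest in RTS0112269, and 3.40 in tumour 2201. RTS0112268 over RTS0112269 was 1.47 in tumour 404, the highest in RTS0113569, and 1.74 in tumour 2203. RTS0112269 over RTS0113569 had r = 0.488 with the level of RTS0112268 (permutation p = 0.0151, adjusted p = 0.0201), but rho was 0.361 (adjusted p = 0.1). This relation rests on few tumours, since r was 0.340 (adjusted p = 0.146) without 610 and 706 and 0.223 (adjusted p = 0.348) without 706 and 1002. Within arrays it was 0.502 on array 1 and 0.482 on array 2.

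The levels were also set against depth. The level of RTS0112268 had r = -0.431 with the mean log2 count of the other probes (permutation p = 0.0358, adjusted p = 0.043), rho was -0.387 (adjusted p = 0.0833), and the depth is also the denominator of the level. The value was -0.306 (adjusted p = 0.176) on array 1 alone, -0.466 (adjusted p = 0.0265) on array 2 alone and -0.353 (adjusted p = 0.144) without tumours 1002 and 1801. With counts summed per tumour before the log it was -0.108 (adjusted p = 0.738). The depth was summed there too and so rises with a tumour's number of regions. This value therefore cannot show what the relation rests on. For RTS0112269 r was -0.339 and for RTS0113569 it was -0.331, each with an adjusted p of 0.114. On array 1 alone these were -0.219 and -0.201, and on array 2 alone -0.380 and -0.375. The part of depth in the levels was not tested beyond these values.

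In the 10 tumours with 2 regions on each array, regions of 1 tumour on 1 array could be compared. On array 1 the level differed between them by a median of 1.51-fold for RTS0112268, 1.66-fold for RTS0112269 and 1.33-fold for RTS0113569, and on array 2 by 1.45-, 1.63- and 1.33-fold. The largest difference was in tumour 404, at 4.36-, 4.28- and 5.23-fold on array 1 and 4.25-, 4.16- and 4.79-fold on array 2. The share of RTS0112268 in 404 was 27.3% and 48.5% on array 1 and 29.4% and 49.98% on array 2. Its ratio to RTS0112269 stayed at 1.44 and 1.46 on array 1 and 1.48 and 1.51 on array 2 on the log2 scale. In this tumour the levels thus differed several-fold between regions at nearly the same ratio of these 2 probes, and the same split was seen on both arrays. The log2 ratio of RTS0112269 over RTS0113569 was less steady, at 1.07 and 0.79 on array 1 and 0.90 and 0.69 on array 2.

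Tumour 1001 showed another pattern. Its regions on array 1 held 13.2% and 8.16% of RTS0112268, and those on array 2 held 14.9% and 8.32%. RTS0112269 held 8.63% and 4.13% on array 1 and 9.48% and 4.05% on array 2. On the log2 scale of the level, RTS0112269 differed between the regions by 1.25 on array 1 and 1.47 on array 2, and RTS0112268 by 0.88 and 1.09. The ratio of the 2 differed by 0.37 on array 1 and 0.38 on array 2, the largest difference of this ratio between regions on each array. Tumours 2206 and 1701 came near it on array 1, at 0.36 and 0.31. In tumour 2203 the ratio of RTS0112268 over RTS0113569 was 3.69 and 3.11 on array 1 and 2.92 and 3.55 on array 2. The labels do not match regions across arrays, and here the order of the values on array 2 was the opposite of that on array 1.

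By level, RTS0112268 and RTS0112269 differed in the same direction between the regions in 9 of 10 tumours on each array. RTS0112268 and RTS0113569 did so in 7 of 10 and RTS0112269 and RTS0113569 in 6 of 10, again on each array. All 3 went the same way in 6 of 10 tumours, and the exceptions were 702, 1701, 2203 and 2206 on both arrays. By share of counts, all 3 went the same way in 5 of 10 tumours on array 1 and in 6 on array 2, and RTS0112268 and RTS0112269 in 8 of 10 on each. These counts are given without a test, since the arrays may hold pieces of the same tissue.

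**Figure D4:**
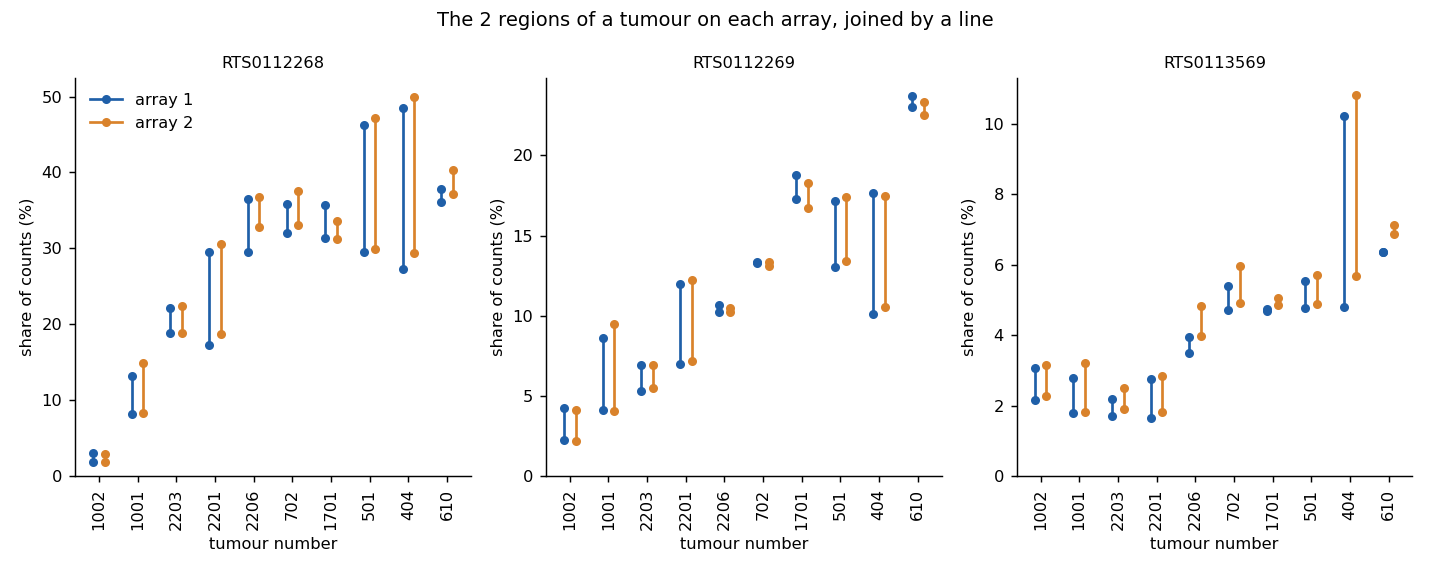
Share of counts in percent of each probe in the 2 regions of a tumour on each array, joined by a line, for the 10 tumours with 2 regions on each array. Blue is array 1 and orange array 2. Tumour 404 has the longest lines in each panel.

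Array 2 was compared with array 1 on counts summed per tumour and array, with the tumour as a block, by edgeR's quasi-likelihood test over 2008 probes. RTS0113569 was higher on array 2 by 0.21 ± 0.04 on the log2 scale (SE, Benjamini-Hochberg adjusted p = 0.000218), in 21 of 24 tumours on this scale and in 22 by the mean level of their regions. RTS0112268 differed by 0.09 ± 0.06 (adjusted p = 0.422, higher in 19 of 24) and RTS0112269 by 0.07 ± 0.04 (adjusted p = 0.389, higher in 17 of 24), and neither passed the test. By the mean level of their regions, 19 and 14 of 24 tumours were higher on array 2. Of 2008 probes, 176 passed, which is 8.76%, with 154 higher and 22 lower on array 2. This split depended on the scaling, being 37 higher and 54 lower with upper quartile scaling and 19 higher and 76 lower with library size alone. RTS0113569 was higher on array 2 under both, by 0.13 (adjusted p = 0.0382) and 0.12 (adjusted p = 0.0161), while RTS0112269 turned to -0.0099 and -0.016. Without the tumour block, a fit that ignores the pairing, the difference of RTS0113569 was 0.17 ± 0.36 (SE, adjusted p = 0.997). In the 10 tumours with 2 regions on each array it was 0.18 ± 0.05 (SE, adjusted p = 0.0864). Neither of these passed. With the block and all 24 tumours, the Wald test of DESeq2 gave 0.20 for RTS0113569 (adjusted p = 2.78e-07), where 9.15% of 2010 probes passed. Without tumour 1403 the difference of RTS0112268 was 0.14 (adjusted p = 0.00692) and passed.

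In the 14 tumours with 1 region on each array, the level differed between arrays by a median of 1.12-fold for RTS0112268, 1.06-fold for RTS0112269 and 1.12-fold for RTS0113569. The largest differences of RTS0112268 and RTS0112269 were in tumour 1403, at 2.72- and 1.51-fold. RTS0112268 held 16.3% of the counts of 1403 on array 1 and 6.79% on array 2, while RTS0113569 held 1.70% and 2.16%. These probes thus moved in opposite directions there, at totals of 35870 and 37501 counts, and the mean total of 1403 was the lowest of the 24 tumours. The largest difference of RTS0113569 was in tumour 701, at 1.32-fold.

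Tumours took a similar order by ratio on both arrays. Over the 24 tumours the ratio on array 1 and that on array 2 had r = 0.944 and rho = 0.953 for RTS0112268 over RTS0112269. The values were 0.940 and 0.888 for RTS0112268 over RTS0113569 and 0.972 and 0.963 for RTS0112269 over RTS0113569. Each permutation p was 1e-05, the smallest the permutations can give, with an adjusted p of 2e-05. Without the 2 tumours farthest from the median of the ratio on array 1, r was 0.913 (without 1002 and 2204), 0.889 (without 706 and 1002) and 0.957 (without 701 and 706). Tumour 1403 lay farthest off, with a log2 ratio of RTS0112268 over RTS0113569 of 3.26 on array 1 and 1.65 on array 2, and without it r was 0.988, 0.99453 and 0.99462.

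**Figure D5:**
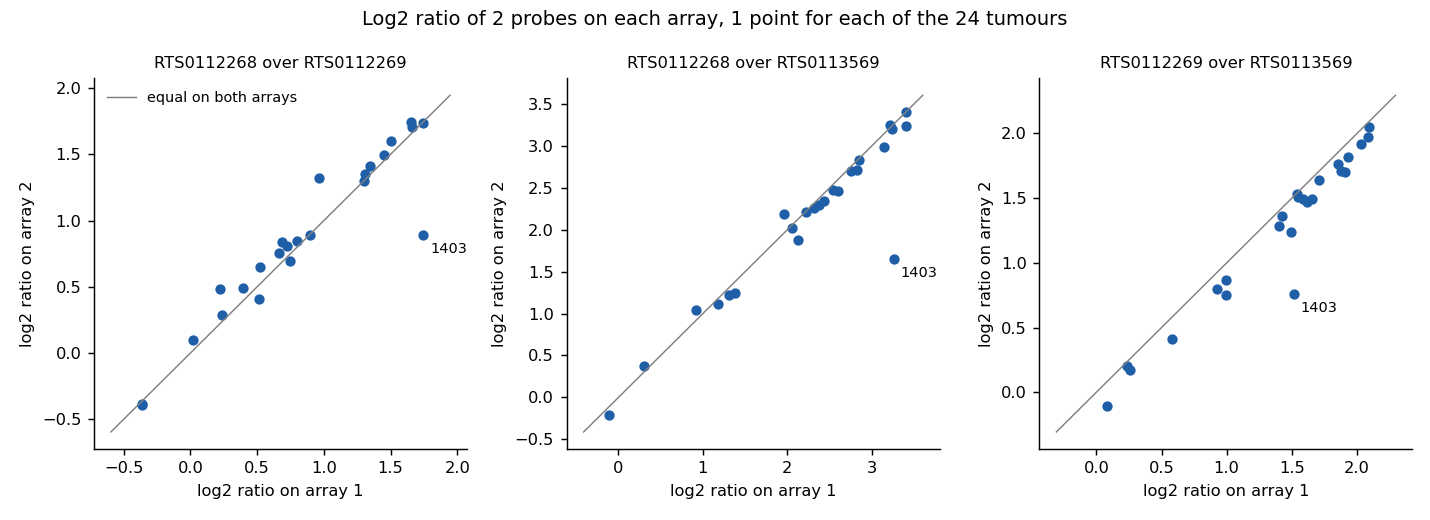
Log2 ratio of 2 probes on array 2 against that on array 1, 1 point for each of the 24 tumours (mean of its regions on the array), 1 panel for each pair. The line marks equal ratios. Tumour 1403 is marked and lies below the line in each panel.

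The no-template control had 74 counts over 38 probes, from 691787 raw and 385 aligned reads. RTS0112268 had 17 counts, RTS0112269 had 17 and RTS0113569 had 4, while no other probe had more than 2 and 34 probes had 1. The 3 probes thus held 51.4% of these counts (95% exact binomial interval 39.4% to 63.1%). RTS0112268 and RTS0112269 each held 23.0% (14.0% to 34.2%) and RTS0113569 5.41% (1.49% to 13.3%). In the 80 tissue libraries pooled, the 3 held 32.8% of the counts, with 19.5%, 9.81% and 3.46% each. In the no-template control the intervals of the summed share and of RTS0112269 lay above their pooled shares. Those of RTS0112268 and RTS0113569 took theirs in. The counts of 17, 17 and 4 compare with lowest counts of 51, 38 and 44 in a control region, and their part in the control levels was not tested.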

How the data were processed

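Region libraries were made with the GeoMx Canine Cancer Atlas probes, per the labels' protocols. The deposited values are counts per probe from the GeoMx NGS pipeline, version 2.3.4, per the file headers, with 1 file for each of the 81 libraries. The probe list given in these files was used whole, and no background was subtracted. No scaling by the authors is recorded in the headers, and the summed counts were used as depth.

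From these counts, shares, ratios within a region and levels were computed, with 0.5 added to a count before log2. A probe at 0 would have been read against a floor of 3 counts. Tests ran in R 4.3.3 with edgeR 4.0.16, using TMM scaling, filterByExpr and a threshold of 0.05 on the Benjamini-Hochberg adjusted p, with DESeq2 1.42.0 as an alternative. The fits were tested on simulated data. The block of the array comparison is the tumour number, which the labels give on both arrays. Relations over tumours used Pearson and Spearman coefficients with 100000 two-sided permutations (Python 3.11.15, scipy 1.17.1). Percent of variance between tumours came from 1-way variance components on levels centred within each array. Named were the 3 probes, other probes that led a tumour region, the 5 probes most like the 3, and the tumours at the ends of each order. Tumours 701, 1001 and 1403, and those listed as exceptions or as farthest from a median, were named after their values were seen. The probes and lists were chosen with earlier results of these data known. No marker list could be read because the probes have no gene names here.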

Additional observations from a re-analysis of the deposited data

Results flagged for a closer look

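In each control tissue, the 4 regions were checked for a region that stands apart in the level or ratio of the 3 probes, which made 18 groups. By chance about 1 group in 20 would hold such a region, and 2 were found. Spleen replicate 1 had a log2 level of RTS0112269 of 10.72, above the other 3 spleen regions, which lay between 10.57 and 10.60. Liver replicate 3 had a log2 level of RTS0113569 of 8.92, from 44 counts, above the other 3 liver regions, which lay between 8.73 and 8.76. Without these regions the means were 10.58 for RTS0112269 in spleen and 8.74 for RTS0113569 in liver.

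The no-template control, which enters no comparison, held 17 counts of RTS0112268, 17 of RTS0112269 and 4 of RTS0113569. The first pair lay above the limit of 3 counts that a count of 0 allows by a wide margin and the last just above it. The cause was not tested.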

How the results depend on the processing

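The difference among tumours passed its test for all 3 probes under each alternative run, with an adjusted p of at most 0.00243, and the relations of the levels and of the ratios on both arrays also kept their calls. The number of probes called among tumours was 728 and 631 in the 10 tumours with 2 regions on array 1 or array 2 alone, and 580 of 729 tested after thinning to the lowest total, against 1738. These alternatives have fewer regions or fewer counts. For the array comparison, the fit without the replicate block gave 0.17 for RTS0113569 (adjusted p = 0.997) and 1 probe called against 176. That fit ignores the pairing by tumour. The 10 tumours with 2 regions per array gave 0.18 for RTS0113569 and 51 probes called. With upper quartile scaling and library size alone RTS0112269 turned to -0.0099 and -0.016, and 91 and 95 probes were called. Leaving out 1 tumour at a time, 123 to 199 probes were called, and the difference ranged from 0.0702 to 0.144 for RTS0112268, where the highest value is that without tumour 1403, from 0.0517 to 0.0855 for RTS0112269 and from 0.191 to 0.226 for RTS0113569. The relation of RTS0112269 over RTS0113569 to RTS0112268 lost its call at r = 0.340 without the 2 farthest tumours and at 0.223 without tumours 706 and 1002. The relation of RTS0112268 to depth lost its call on array 1 alone (-0.306) and without the 2 farthest tumours (-0.353). It also did so with TMM scaling (-0.338) or upper quartile scaling (-0.402), and without tumours 706 and 1002 (-0.274). With counts summed per tumour it was -0.108 and had no call, but depth there rises with a tumour's number of regions. That value cannot show what the relation rests on. Without tumour 1403, the relations of RTS0112269 (-0.430) and RTS0113569 (-0.421) to depth gained a call. The alternatives that leave out named tumours or the 17 regions with the lowest totals were chosen after seeing the data. The 5 most similar probes were the same under TMM and upper quartile scaling, and 3 of them came out with library size alone, where the median r of all probes was -0.58. With TMM or upper quartile scaling the levels in the control tissues moved by more than the SD of their regions, as a shift shared by the 3 probes. In the control regions the precision of a share is limited by counts as low as 38.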
